A study of Mus musculus with 6 samples.

Results

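Cytokine feedback by SOCS proteins, CISH and PIM kinases was followed in lung ILC2s with and without chemical opening of the Piezo1 channel, through 10 genes chosen by name. They are the inhibitors Socs1, Socs2, Socs3 and Cish, the kinases Pim1, Pim2 and Pim3, and the transcription factors Stat3, Stat5a and Stat5b. They were chosen with earlier results of these data known. All 10 were among the 17546 genes of the deposited table, and all 10 passed the filter on low counts, which left 13325 genes tested. Group 2 innate lymphoid cells (ILC2s) are tissue lymphocytes that lack antigen receptors and secrete type 2 cytokines such as IL-5. They were sorted from lungs of BALB/c mice given IL-33 intranasally, 1 µg in each of 3 injections, and every library came from cells kept in IL-2 and IL-7, each at 10 ng/mL. For 24 h the cells also received Yoda1 at 10 µM, in libraries Yoda1 4, 5 and 6, or DMSO, in libraries DMSO 1, 2 and 3. Yoda1 is a synthetic agonist of Piezo1, a mechanically gated cation channel that lets calcium in. The labels give no genotype beyond the strain. The design text names PBS as the control where the sample labels name DMSO, and the labels were followed.

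IL-2, IL-7 and other cytokines act through receptor chains that carry JAK kinases, which phosphorylate STAT proteins, and phosphorylated STAT dimers then switch on target genes. Socs1, Socs3 and Cish are classic targets of this kind, and their proteins feed back on the receptor and the JAKs, while PIM kinases are induced along with them and promote survival, growth and translation. PIM kinases need no activating phosphorylation and are controlled largely through their amount. In ILC2s, STAT5 carries the signals of IL-2 and IL-7, and STAT3 those of IL-6 and IL-10 family cytokines. RNA-seq measures the transcripts and not STAT phosphorylation.

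With Yoda1, Socs3 fell to 0.249 of its DMSO level, Pim2 to 0.383 and Pim1 to 0.709, while none of the STAT genes passed the test in either direction. In all, 3 of the 10 genes were lower by edgeR's quasi-likelihood test at a Benjamini-Hochberg adjusted p under 0.05, and 0 were higher. The background was 0.923% of the 13325 tested genes lower (123 genes) and 0.57% higher (76 genes), or 1.49% in either direction. With no adjustment, at p under 0.05, 5 of the 10 were lower and 0 higher, where 7.11% of tested genes were lower and 7.39% higher. DESeq2 called 4 of the 10 lower and 0 higher (3.43% and 2.92% of its tested genes), and limma voom 3 lower and 0 higher (1.34% and 0.908%). All 10 also passed a stricter filter of 10 CPM in 3 libraries. There edgeR called 4 of the 10 lower and 0 higher, against 3.4% and 1.85% of 8518 tested genes. The groups did not overlap for 5 of the 10, all lower with Yoda1, where 22.6% of tested genes had groups that did not overlap and 12% did so in the lower direction. The median log2 fold change was -0.24 over the 10 genes and 0.01 over all tested genes.

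**Figure D1:**
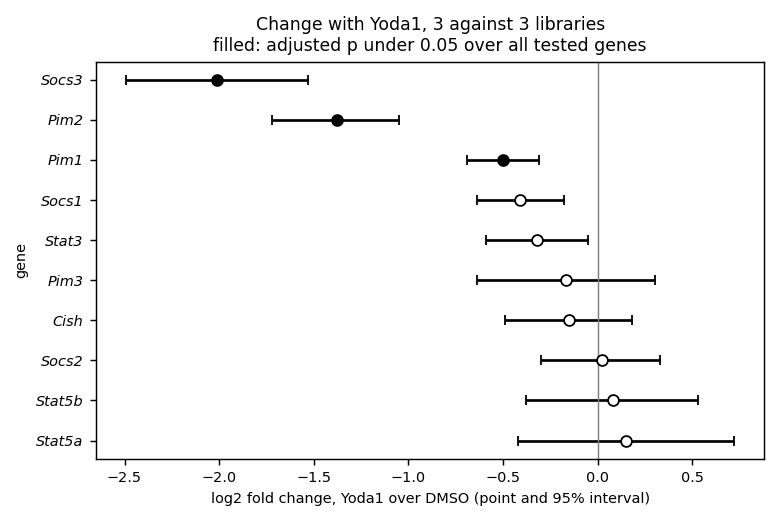
Log2 fold change (x axis, Yoda1 over DMSO) of each of the 10 genes (y axis), with its 95% interval from the edgeR fit on 3 Yoda1 and 3 DMSO libraries. Filled points mark the 3 genes past the test, Socs3 at -2.01, Pim2 at -1.38 and Pim1 at -0.50, and the remaining 7 points are open.

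Total counts were 15355158 to 17322050 in the Yoda1 libraries and 14214048 to 31627519 in the DMSO libraries. All 12 ILC2 markers were measured, and their summed level was 11535 to 12827 CPM (each library's counts brought to the same total, with TMM factors) with Yoda1 and 10114 to 10880 CPM with DMSO. Il5 carried most of that sum, at 6932 to 8429 CPM with Yoda1 and 5308 to 5932 CPM with DMSO, and the other 11 markers summed to 4398 to 4885 CPM with Yoda1 and 4806 to 4957 CPM with DMSO. Of the 12, Icos was lower (463 CPM with Yoda1 and 860 CPM with DMSO) and Arg1 higher (462 CPM with Yoda1 and 243 CPM with DMSO) by the test over all genes, and 10 did not pass it. Several libraries share a number in their labels, 21 for Yoda1 4 and 5 and 19 for DMSO 2 and 3, so each pair may be less independent than separate cultures. The same DMSO pair held the most lung epithelial transcripts: the epithelial list (8 of 9 genes measured) summed to 55.2 to 77.7 CPM with Yoda1, against 91.0 CPM in DMSO 1, 422 CPM in DMSO 2 and 407 CPM in DMSO 3. Epcam made up most of that sum in the Yoda1 libraries and in DMSO 1. It had 57.8, 48.8 and 71.6 CPM in Yoda1 4, 5 and 6, against 67.4, 64.5 and 65.9 CPM in DMSO 1, 2 and 3, and did not pass the test (edgeR adjusted p = 0.741). Scgb1a1, the club cell secretory protein, was listed at 0, 0 and 0.0597 CPM in Yoda1 4, 5 and 6, against 0, 301 and 295 CPM in DMSO 1, 2 and 3. DMSO 1 was not free of such transcripts: Sftpc, the surfactant protein C gene, was at most 0.289 CPM with Yoda1 and 15.2 CPM in DMSO 1. Of the T cell list, 5 of 8 genes were measured, with a sum of 26.8 to 32.7 CPM with Yoda1 and 39.9 to 41.8 CPM with DMSO, most of it from Cd3g. Without Cd3g the groups overlapped, at 4.44 to 8.65 CPM with Yoda1 and 8.35 to 10.2 CPM with DMSO. The NK cell and ILC1 list (4 of 6 measured) summed to 13.0 to 17.6 CPM with Yoda1 and 36.0 to 62.4 CPM with DMSO. That sum rested on Gzma, a granzyme gene, at 11.2 to 14.9 CPM with Yoda1 and 35.5 to 58.7 CPM with DMSO; without it the groups overlapped, at 1.87 to 3.52 CPM with Yoda1 and 0.497 to 3.72 CPM with DMSO. The erythroid list (2 of 5 measured) went the other way, at 9.94 to 19.5 CPM with Yoda1 and 6.37 to 8.66 CPM with DMSO, as did Lyz2, a myeloid lysozyme gene, at 6.32 to 11.2 CPM with Yoda1 and 1.29 to 4.91 CPM with DMSO. Summed B cell, macrophage, granulocyte and stromal markers overlapped between the groups. Epcam, Sftpc, Gzma, Lyz2, Icos, Arg1, Il5 and Cd3g were singled out after their values were seen, and their part in the results below was not tested. In bulk RNA, fewer cells of a type and less RNA per cell cannot be told apart.

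Socs3 encodes an inhibitor that binds both the JAK and the shared gp130 chain of IL-6 family receptors, and it is a known target of STAT3. It lies on the minus strand of chromosome 11 at chr11:117966079-117970047 (GRCm38, the build also called mm10). Its level was 31.6, 44.7 and 25 CPM in Yoda1 4, 5 and 6, against 128, 134 and 146 CPM in DMSO 1, 2 and 3. Every Yoda1 library was far below every DMSO library, and the lowest DMSO value exceeded the highest Yoda1 value by a wide margin. The mean was 33.8 ± 10.0 CPM with Yoda1 and 136 ± 9.12 CPM with DMSO (SD, n = 3 each). The log2 fold change was -2.01 with a standard error of 0.21 and a 95% interval of -2.49 to -1.53 (edgeR quasi-likelihood test, adjusted p = 0.00537). The counts behind it were whole in all 6 libraries, from 419 to 774 with Yoda1 and from 2062 to 4231 with DMSO. Against DMSO 1 alone, the DMSO library with the lowest epithelial sum, the log2 fold change was -1.93, though with 1 control library no member passed the test (edgeR adjusted p = 0.476). Socs3 also passed in 5 of the 6 fits that left out 1 library, the exception being the fit without DMSO 3 (log2 fold change -1.96, edgeR adjusted p = 0.0606). The call was also lost when libraries that share a label number were summed (log2 fold change -2.06, edgeR adjusted p = 0.134). The label suffix is 0 for DMSO 1 and 2 only. With it as a term, the change rests on DMSO 3 alone against the Yoda1 libraries, and the log2 fold change was -2.11.

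Sequence before a RefSeq start of each of the 3 genes that fell is given to show whether a STAT motif is written there. RefSeq promoters on GRCm38.p6 exist in the table used for 9 of the 10 genes, Socs2 being the one without an entry. The stretches for Socs3, Pim2 and Pim1 are printed 5′ to 3′ up to the first base in a GENCODE exon, and for Pim1, which has another entry inside the gene, the entry before its first exon is shown. The Socs3 stretch lies inside the GENCODE span given above, since a noncoding transcript of the gene starts farther upstream than the RefSeq one. Capitals mark TTCNNNGAA, the core of the gamma-activated sequence that STAT dimers recognise, which reads the same on both strands.
Socs3, minus strand, chr11:117969452-117969616: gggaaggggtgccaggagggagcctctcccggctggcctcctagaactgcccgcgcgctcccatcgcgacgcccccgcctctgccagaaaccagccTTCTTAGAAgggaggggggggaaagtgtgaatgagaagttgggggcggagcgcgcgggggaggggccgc
Pim2, plus strand, chrX:7878056-7878261: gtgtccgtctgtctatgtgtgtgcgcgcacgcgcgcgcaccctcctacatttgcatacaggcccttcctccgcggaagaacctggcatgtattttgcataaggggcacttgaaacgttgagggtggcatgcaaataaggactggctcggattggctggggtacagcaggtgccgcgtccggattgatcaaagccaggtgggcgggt
Pim1, plus strand, chr17:29490535-29490752: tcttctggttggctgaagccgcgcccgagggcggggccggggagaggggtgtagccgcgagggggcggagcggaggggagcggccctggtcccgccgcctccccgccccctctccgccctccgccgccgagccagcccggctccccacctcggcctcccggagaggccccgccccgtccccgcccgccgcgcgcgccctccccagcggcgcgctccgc

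The single match in Socs3, TTCTTAGAA, lay 154 to 146 bases before the RefSeq start. Across the 12 promoter entries of the 9 genes, the 250 bases before the start held this motif in 1 entry, against 7.02% of 32851 RefSeq promoter windows of that length. The Pim2 and Pim1 entries held no match. The match is a description of the sequence, and nothing outside these windows, some of which lie inside annotated genes, was searched.

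Socs1, the inhibitor that blocks JAK catalytic activity directly and restrains interferon and common gamma chain cytokine signalling, lies at chr16:10782240-10785536 on the minus strand. Its level was 528, 563 and 641 CPM in Yoda1 4, 5 and 6, against 815, 696 and 790 CPM in DMSO 1, 2 and 3. All Yoda1 values were below all DMSO values, with the closest pair Yoda1 6 and DMSO 2. The mean was 577 ± 57.7 CPM with Yoda1 and 767 ± 62.6 CPM with DMSO (SD, n = 3 each). The log2 fold change of -0.41 (standard error 0.10, 95% interval -0.64 to -0.18) did not pass the test over all genes (edgeR adjusted p = 0.0965). The call depended on the setting: Socs1 passed in DESeq2 (adjusted p = 0.00806), under a filter of 10 CPM in 3 libraries (edgeR adjusted p = 0.0313) and without Yoda1 6 (edgeR adjusted p = 0.0468).

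Cish and Socs2 encode the relatives that compete for docking sites on the receptors rather than blocking the kinase, and neither passed the test. Cish, an early STAT5 target at chr9:107296026-107302784 on the plus strand, had 543, 545 and 369 CPM in Yoda1 4, 5 and 6, against 529, 526 and 565 CPM in DMSO 1, 2 and 3. Yoda1 6 was low on its own, and Yoda1 4 and 5 fell among the DMSO values, so the groups overlapped. The log2 fold change was -0.15 with a 95% interval of -0.49 to 0.18 (edgeR adjusted p = 0.69), and it was 0.01 without Yoda1 6. Socs2, at chr10:95385362-95417180 on the minus strand, had 149, 109 and 137 CPM in Yoda1 4, 5 and 6, against 136, 123 and 130 CPM in DMSO 1, 2 and 3. The DMSO values lay inside the range of the Yoda1 values. Its log2 fold change was 0.02 with a 95% interval of -0.30 to 0.33 (edgeR adjusted p = 0.976). The exons of Cish overlap those of Gm17041, an antisense gene, by 479 bases and those of the pseudogene Gm17040, also on the opposite strand, by 261 bases. The strand setting of the counting is not given, so reads in these stretches cannot be told apart.

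Within the group of 4 inhibitors the balance moved with Socs3. Measured per kilobase of exon, Socs3 made up 3.89 ± 1.10% of the summed level of Socs1, Socs2, Socs3 and Cish with Yoda1 and 11.5 ± 0.874% with DMSO (SD, n = 3 each), a difference of -7.63 percentage points. At this length Socs1 stayed the largest component, at 66.2 ± 6.12% with Yoda1 and 64.5 ± 1.83% with DMSO. Its share depended on the length used. By the longest protein-coding transcript, Socs1 had 199 CPM per kb and Cish 170 with Yoda1, against 264 and 190 with DMSO. Counts of Cish over Socs1 were 0.576 to 1.03 with Yoda1, the highest in Yoda1 4, and 0.649 to 0.756 with DMSO. The count ratio of Socs3 to Cish, which needs no length, was 0.0582, 0.0819 and 0.0678 in Yoda1 4, 5 and 6, against 0.242, 0.254 and 0.258 in DMSO 1, 2 and 3. These ratios did not overlap, so the difference in Socs3 was also present relative to another inhibitor in the same library. The ratio of Socs2 to Cish overlapped between groups, at 0.200 to 0.371 with Yoda1 and 0.231 to 0.258 with DMSO.

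Of the PIM serine/threonine kinases, Pim2 and Pim1 fell and Pim3 did not pass the test. Pim2, on the plus strand of the X chromosome at chrX:7878262-7883432, encodes a kinase that in lymphocytes supports survival and cap-dependent translation independently of mTOR. Its level was 93.2, 64.5 and 84.3 CPM in Yoda1 4, 5 and 6, against 206, 211 and 215 CPM in DMSO 1, 2 and 3. The DMSO values lay close together, and all Yoda1 values were well below them. The mean was 80.7 ± 14.7 CPM with Yoda1 and 211 ± 4.90 CPM with DMSO (SD, n = 3 each), a log2 fold change of -1.38 (standard error 0.15, 95% interval -1.72 to -1.05; edgeR adjusted p = 0.00537). Against DMSO 1 alone the log2 fold change was -1.36. With the suffix term, which leaves DMSO 3 as the only control, it was -1.42. The call was lost without DMSO 3 (edgeR adjusted p = 0.0606) and with summed libraries (edgeR adjusted p = 0.0885).

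Pim1, the family member first found as an integration site in mouse lymphomas, lies at chr17:29490753-29496112 on the plus strand. Its level was 362, 370 and 338 CPM in Yoda1 4, 5 and 6, against 487, 511 and 510 CPM in DMSO 1, 2 and 3. Values within each group lay close together and the groups did not overlap. The mean was 356 ± 16.2 CPM with Yoda1 and 503 ± 13.3 CPM with DMSO (SD, n = 3 each), a log2 fold change of -0.50 (standard error 0.08, 95% interval -0.69 to -0.31; edgeR adjusted p = 0.0302). The size hardly moved when libraries were left out, from -0.52 to -0.46, but the call was kept only without Yoda1 6 (edgeR adjusted p = 0.0293). It was lost without Yoda1 4 (edgeR adjusted p = 0.0502), Yoda1 5 (0.113), DMSO 1 (0.108), DMSO 2 (0.184) or DMSO 3 (0.169), and with summed libraries (0.258). With the suffix term, which leaves DMSO 3 as the only control, the log2 fold change was -0.52. The exons of Pim1 overlap the antisense gene Gm26885 by 488 bases.

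Pim3, at chr15:88862186-88865726 on the plus strand, had 64.1, 75.8 and 57.7 CPM in Yoda1 4, 5 and 6, against 95, 70.5 and 57.2 CPM in DMSO 1, 2 and 3. The spread inside the DMSO group covered all Yoda1 values. The log2 fold change was -0.17 with a 95% interval of -0.64 to 0.30 (edgeR adjusted p = 0.757). Summed over the 3 kinases the level was 519, 510 and 480 CPM in Yoda1 4, 5 and 6, against 788, 792 and 782 CPM in DMSO 1, 2 and 3. The share of Pim2 in the family's summed level per kilobase was 17.8 ± 3.28% with Yoda1 and 29.5 ± 1.01% with DMSO (SD, n = 3 each). Pim1 made up 65.4 ± 1.36% with Yoda1 and 58.5 ± 2.03% with DMSO, so the remaining PIM transcript was more strongly Pim1. The count ratio of Pim2 to Pim1 did not overlap between groups, at 0.175 to 0.258 with Yoda1 and 0.412 to 0.423 with DMSO.

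**Figure D2:**
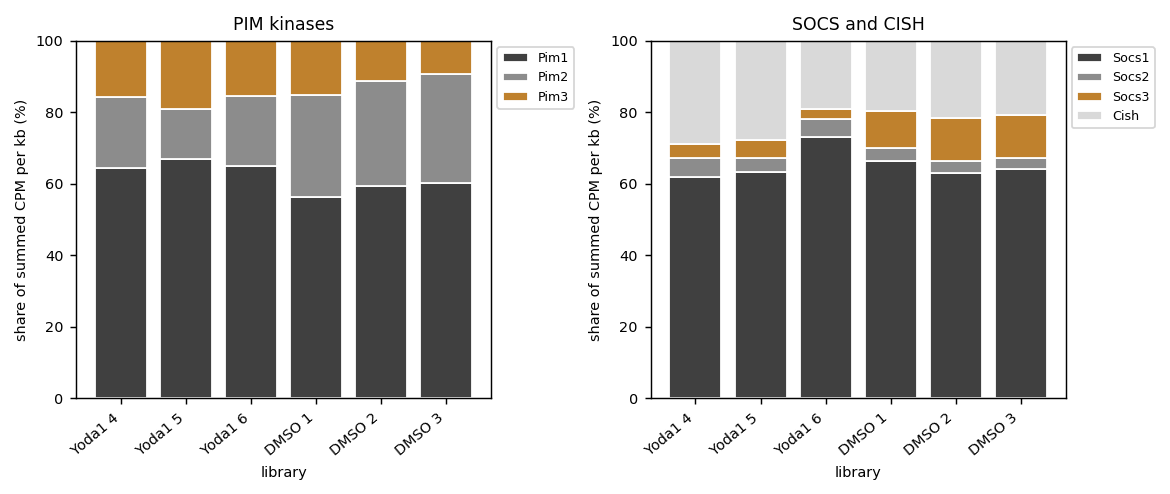
Share (y axis, % of the summed CPM per kilobase of exon) of each PIM kinase (left) and of each SOCS or CISH gene (right) in every library (x axis, Yoda1 libraries left of DMSO libraries). Each bar is 1 library and sums to 100%; Pim2 takes 14.1 to 19.9% with Yoda1 and 28.5 to 30.6% with DMSO, and Socs3 takes 2.87 to 5.06% with Yoda1 and 10.5 to 12.1% with DMSO.

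The STAT genes sit side by side on chromosome 11, Stat5b at 100780731 to 100850724, Stat5a at 100859351 to 100885169 and Stat3 at 100885098 to 100939540, and none passed the test. Stat3, which relays IL-6 and IL-10 family signals, had 315, 310 and 240 CPM in Yoda1 4, 5 and 6, against 358, 357 and 360 CPM in DMSO 1, 2 and 3. The DMSO values were nearly equal and all Yoda1 values lay below them, with Yoda1 6 the lowest. The log2 fold change was -0.32 (standard error 0.12, 95% interval -0.59 to -0.05; edgeR adjusted p = 0.268), and it was -0.20 without Yoda1 6. Stat5a and Stat5b, near-identical neighbours that carry the IL-2 and IL-7 signal, are so alike that the division of reads between them is uncertain. Counts were fractional in all 6 libraries for Socs1, Socs2, Cish, Pim1 and Stat3 as well, and how reads were divided there is not given. Stat5b had 101, 101 and 71.1 CPM in Yoda1 4, 5 and 6, against 82.1, 70.2 and 106 CPM in DMSO 1, 2 and 3, with a log2 fold change of 0.08 (95% interval -0.38 to 0.53; edgeR adjusted p = 0.904). Stat5a had 32.9, 31.3 and 18.4 CPM in Yoda1 4, 5 and 6, against 23.7, 26.9 and 23.8 CPM in DMSO 1, 2 and 3, with a log2 fold change of 0.15 (95% interval -0.42 to 0.72; edgeR adjusted p = 0.842). Both overlapped between the groups. With their counts added to one row, the level was 134, 132 and 89.5 CPM in Yoda1 4, 5 and 6, against 106, 97.1 and 130 CPM in DMSO 1, 2 and 3, and the log2 fold change was 0.0944 (standard error 0.186; edgeR adjusted p = 0.868). Stat5a and Stat3 also share 72 exon bases on opposite strands.

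**Figure D3:**
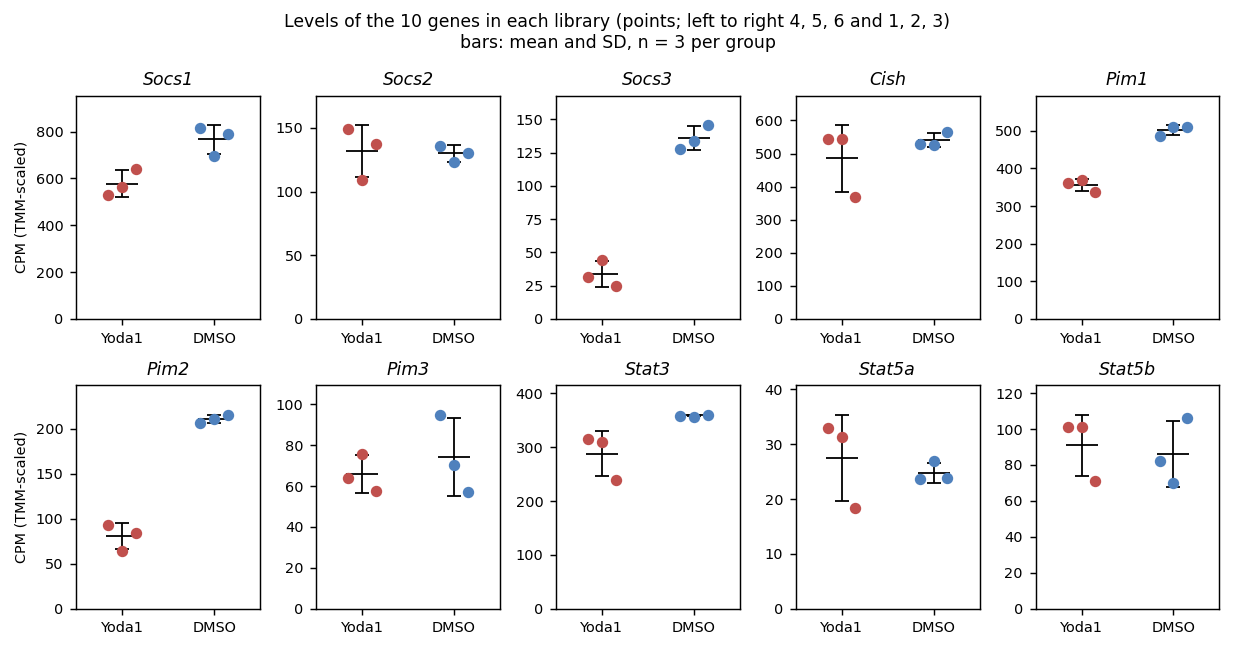
Level (y axis, TMM-scaled CPM, each panel starting at 0) of the 10 genes in the Yoda1 libraries (left, red) and the DMSO libraries (right, blue), with points for libraries and bars for the mean and SD of 3 libraries. Socs3 and Pim2 separate the groups most widely, at 25 to 44.7 against 128 to 146 CPM and 64.5 to 93.2 against 206 to 215 CPM, while Socs2, Cish, Pim3, Stat5a and Stat5b overlap.

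Ranked per kilobase of exon, the order of levels with Yoda1 was Socs1 (199 CPM per kb), Pim1 (106), Cish (75.7), Stat3 (30.2), Pim2 (28.9), Pim3 (27.1), Stat5b (16.4), Socs2 (13.8), Socs3 (11.7) and Stat5a (3.86). With DMSO the order was Socs1 (264 CPM per kb), Pim1 (149), Cish (84.1), Pim2 (75.3), Socs3 (47), Stat3 (37.6), Pim3 (30.6), Stat5b (15.6), Socs2 (13.6) and Stat5a (3.48). Socs3 stood in place 9 with Yoda1 and place 5 with DMSO, or in place 9 with Yoda1 and place 7 with DMSO by the length of the longest protein-coding transcript. With Yoda1 the ranges of neighbours overlapped between Stat3 and Pim2, Pim2 and Pim3, Stat5b and Socs2, and Socs2 and Socs3, and with DMSO between Stat3 and Pim3 and between Stat5b and Socs2. The order also depended on the length used: by that transcript's length, Cish stood second in both groups (170 CPM per kb with Yoda1 and 190 with DMSO) and Socs2 had 59.2 CPM per kb with Yoda1 and 58.5 with DMSO.

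The Yoda1 libraries were more uneven than the DMSO libraries for most of these genes. The coefficient of variation was larger with Yoda1 for 8 of the 10, at 29.6% with Yoda1 and 6.72% with DMSO for Socs3 and at 20.8% with Yoda1 and 3.95% with DMSO for Cish. Across the 6905 genes with a mean of at least 20 CPM it was larger with Yoda1 for 66.4%, with a median of 15.2% with Yoda1 and 10.3% with DMSO. Yoda1 6 was the lowest of its group for 7 of the 10 genes and the highest for 1, Socs1. How often Yoda1 6 was lowest over all tested genes was not counted, so this is not read as a trait of these genes. Pim3 and Stat5b were the exceptions, more variable among the DMSO libraries.

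Upstream of the STATs, the JAK kinases and the receptor chains were examined as lists, chosen with earlier results of these data known. Counts in these and the later lists stand beside the shares over all tested genes. Those were 0.923% lower and 0.57% higher by edgeR, 3.43% and 2.92% by DESeq2, and 1.34% and 0.908% by voom. At an unadjusted p under 0.05 they were 7.11% lower and 7.39% higher. None of the 4 JAK genes passed edgeR's test; before adjustment 1 was lower and 0 higher at p under 0.05, and 1 was lower by DESeq2 and 0 by voom. That gene, Jak3, the kinase bound to the common gamma chain of the IL-2 and IL-7 receptors, had 278, 276 and 209 CPM in Yoda1 4, 5 and 6, against 384, 341 and 377 CPM in DMSO 1, 2 and 3. The groups did not overlap, and the log2 fold change was -0.53 (95% interval -0.82 to -0.24; edgeR adjusted p = 0.0881). It passed under the filter of 10 CPM in 3 libraries (edgeR adjusted p = 0.0211). Of the 12 measured receptor chains that signal through STAT5, 2 fell and 0 rose, with a median log2 fold change of -0.39 over the list. DESeq2 and voom each called 4 of them lower and 0 higher, as did the unadjusted p. By the unadjusted p the 4 were Il2ra, Csf2rb, Il2rb and Il7r. Il2rb, another IL-2 receptor chain, had 316, 273 and 234 CPM in Yoda1 4, 5 and 6, against 386, 421 and 438 CPM in DMSO 1, 2 and 3. Its log2 fold change was -0.60 (95% interval -0.88 to -0.31, edgeR adjusted p = 0.0599), and it was named after its values were seen. Il2ra, the high-affinity IL-2 receptor chain, had 776, 682 and 731 CPM in Yoda1 4, 5 and 6, against 1156, 1144 and 1182 CPM in DMSO 1, 2 and 3, a log2 fold change of -0.67 (95% interval -0.84 to -0.50; edgeR adjusted p = 0.00707). The values were tight in both groups and far from overlapping. Csf2rb, the shared signalling chain of the IL-3, IL-5 and GM-CSF receptors, had 14.6, 11.9 and 3.82 CPM with Yoda1, against 40.8, 54.6 and 46.2 CPM with DMSO, a log2 fold change of -2.22 (95% interval -3.19 to -1.25; edgeR adjusted p = 0.0464). Csf2rb2, its near-identical neighbour, was measured separately at a mean of 2.68 CPM with Yoda1 and 5.77 CPM with DMSO, so the division of reads between the pair is uncertain. Of 8 tested chains that signal mainly through STAT3, 1 fell and 0 rose: Il10ra had 79.8, 72.9 and 51.6 CPM with Yoda1, against 120, 128 and 129 CPM with DMSO, a log2 fold change of -0.88 (edgeR adjusted p = 0.0479). It encodes the ligand-binding chain for IL-10, and its groups did not overlap. In that list DESeq2 called 2 lower and voom 1, neither called any higher, and the unadjusted p gave 2 lower and 1 higher. By the unadjusted p the lower genes were Il10ra and Il12rb1, and the higher gene was Il10rb. Il12rb1 also serves the receptor for IL-12, whose factor is Stat4, so it is not a STAT3 chain alone.

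Of 10 tested cytokine ligands of these receptors, 2 fell and 0 rose, with a median log2 fold change of -0.15. Il9, a cytokine that ILC2s make and answer to, had 0.774, 2.02 and 3.76 CPM in Yoda1 4, 5 and 6, against 25.9, 32.5 and 39.8 CPM in DMSO 1, 2 and 3, a log2 fold change of -3.89 (edgeR adjusted p = 0.00887). Il10, the STAT3-activating regulatory cytokine, had 2.90, 6.41 and 6.74 CPM with Yoda1, against 22.6, 27.3 and 19.5 CPM with DMSO, a log2 fold change of -2.11 (edgeR adjusted p = 0.0301). Neither gene had a Yoda1 library near its lowest DMSO library. Before adjustment, 3 ligands were lower and 3 higher at p under 0.05. The calls by DESeq2 were 3 lower and 2 higher, and those by voom 2 lower and 1 higher. The 3 higher before adjustment, named after their values were seen, were Il5, Csf2 and Lif. Mean levels with Yoda1 and DMSO were 7440 and 5721 CPM for Il5 (edgeR adjusted p = 0.0709) and 651 and 453 CPM for Csf2 (0.0703). Those of Lif were 17.1 and 6.37 CPM (edgeR adjusted p = 0.217), and its groups overlapped.

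Further STATs and the other brakes on the pathway gave no call in the reported edgeR fit. Of Stat2, Stat4 and Stat6, edgeR and voom called 0 and DESeq2 called 2 higher, with 2 higher and 0 lower before adjustment at p under 0.05. Stat6, the factor for IL-4 and IL-13, had 360, 320 and 272 CPM in Yoda1 4, 5 and 6, against 197, 192 and 243 CPM in DMSO 1, 2 and 3, a log2 fold change of 0.59 (95% interval 0.27 to 0.91; edgeR adjusted p = 0.0821). Stat4, the factor for IL-12, had 153, 124 and 123 CPM with Yoda1, against 89.4, 68.2 and 98.7 CPM with DMSO, a log2 fold change of 0.65 (95% interval 0.27 to 1.03; edgeR adjusted p = 0.109). In both genes every Yoda1 value was above every DMSO value, and both passed as higher under the filter of 10 CPM in 3 libraries (edgeR adjusted p = 0.0308 for Stat6 and 0.0445 for Stat4). The remaining SOCS genes (4), the elongin and cullin ligase genes that the SOCS box recruits (6) and the phosphatases, PIAS proteins and adaptors that limit JAK and STAT signalling (13) had 0 called by edgeR, DESeq2 and voom, and 0 past p under 0.05 before adjustment. The smallest p in each of these came from a gene whose interval included 0: Socs5 at 1.17 (95% interval -0.97 to 3.31), Cul2 at 0.17 (-0.15 to 0.49) and Ptpn6, the phosphatase SHP-1, at 0.38 (-0.00 to 0.76) on the log2 scale.

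Genes downstream were also counted from lists of reported targets, which are drawn from other cells. Of 17 tested STAT5 targets outside the 10 genes, 4 fell and 0 rose, with a median log2 fold change of -0.27. DESeq2 called 6 lower and voom 5, with 7 lower by the unadjusted p, and all of these gave 0 higher. Gzmb, the cytotoxic protease granzyme B, had 30.8, 31.3 and 45.7 CPM in Yoda1 4, 5 and 6, against 118, 148 and 149 CPM in DMSO 1, 2 and 3, a log2 fold change of -1.94 (edgeR adjusted p = 0.00452). Lta, the lymphotoxin alpha gene, had 39.9, 41.0 and 56.2 CPM with Yoda1, against 128, 124 and 116 CPM with DMSO, a log2 fold change of -1.43 (edgeR adjusted p = 0.0072). Il2ra and Irf4 were the other two that fell, and Irf4, a transcription factor induced by antigen receptor and cytokine signals in lymphocytes, had 18.6, 18.1 and 6.62 CPM with Yoda1, against 58.0, 53.8 and 44.6 CPM with DMSO (edgeR adjusted p = 0.0493). The survival genes Bcl2 (67.3 CPM with Yoda1 and 66.7 CPM with DMSO) and Bcl2l1 (154 CPM with Yoda1 and 139 CPM with DMSO), also reported STAT5 targets and named here after their values were seen, did not pass the test. Gzma, the granzyme gene given above among the NK cell markers, was also lower in the Yoda1 libraries, and its relation to the Gzmb value was not tested.

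Of 17 tested STAT3 targets, 3 fell and 0 rose, with a median log2 fold change of -0.32, namely Bcl3, Il10 and Irf4. DESeq2 called 5 lower and voom 4, with 6 lower by the unadjusted p, and all of these gave 0 higher. Bcl3, a nuclear IκB protein, had 114, 94.8 and 74.8 CPM in Yoda1 4, 5 and 6, against 242, 224 and 240 CPM in DMSO 1, 2 and 3, a log2 fold change of -1.32 (edgeR adjusted p = 0.00734). Genes reported to be repressed by STAT5 gave 0 of 3 called by edgeR, with 1 lower before adjustment (p under 0.05), which DESeq2 and voom also called lower. That gene, Il7r, the IL-7 receptor chain, had 111, 95.1 and 94.7 CPM with Yoda1, against 136, 169 and 161 CPM with DMSO, a log2 fold change of -0.63 (95% interval -0.93 to -0.33; edgeR adjusted p = 0.0611, or 0.0142 under the filter of 10 CPM in 3 libraries). Of 16 genes for reported PIM substrates, 0 were called by edgeR or voom and 1 lower by DESeq2, with a median of -0.04. PIM kinases phosphorylate the proteins of these genes, so the transcript levels do not measure PIM activity. At an unadjusted p under 0.05, where 7.11% of all tested genes were lower, 1 of the 16 was lower. The smallest p among them belonged to Rb1, the retinoblastoma protein, at 32.8 ± 2.03 CPM with Yoda1 and 50.2 ± 4.51 CPM with DMSO (edgeR adjusted p = 0.118). These lists share genes, Il2ra, Irf4, Il10 and Il7r among them, and 9 different genes outside the 10 passed the test. None of the 9 passed without DMSO 3, and Gzmb passed in 5 of the 6 fits that left out 1 library, Il2ra in 3, Lta, Bcl3, Il10 and Il9 in 2 and Csf2rb, Il10ra and Irf4 in 1.

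**Figure D4:**
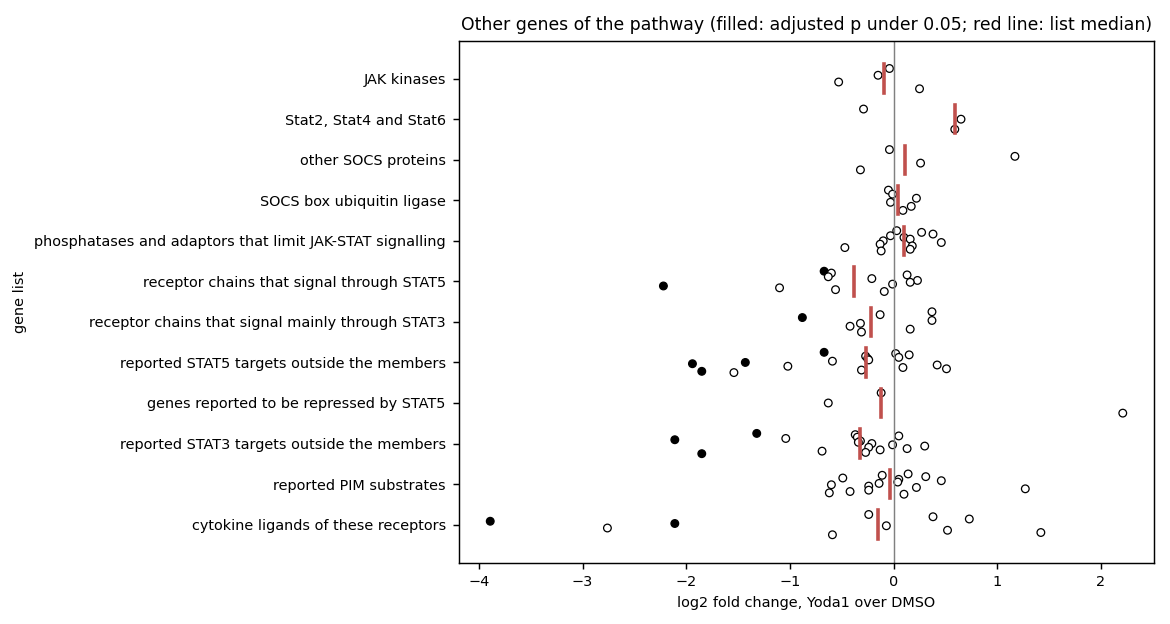
Log2 fold change (x axis, Yoda1 over DMSO) of every tested gene in each described list of other pathway genes (y axis), with points for genes and a red line for the median of a list. Filled points, which passed the edgeR test at an adjusted p under 0.05, all lie left of 0, from -3.89 for Il9 to -0.67 for Il2ra.

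The genes whose profile over the 6 libraries was nearest to that of each gene that fell were taken from 8996 genes with a mean of at least 5 CPM, by the root mean square difference of their centred log2 CPM. For Socs3 they were Aqp9, an aquaglyceroporin, at 0.29, Slc7a8, a neutral amino acid transporter, at 0.35 and Knl1, a kinetochore protein, at 0.36. Aqp9 had 21.7, 19.6 and 21.6 CPM in Yoda1 4, 5 and 6, against 80.0, 92.1 and 95.2 CPM in DMSO 1, 2 and 3. For Pim2 they were Pla2g7, a secreted phospholipase, at 0.15, and P2ry2, a nucleotide receptor, and Slc16a3, a lactate transporter, at 0.16 each. Slc16a3 had 32.1, 27.9 and 35.4 CPM with Yoda1, against 78.5, 66.6 and 75.2 CPM with DMSO. For Pim1 they were Tpi1, a glycolytic enzyme, at 0.03, and Smox, a polyamine oxidase, and Hmgn1, a nucleosome-binding protein, at 0.04 each. Tpi1 had 843, 819 and 784 CPM with Yoda1, against 1125, 1200 and 1186 CPM with DMSO. The likeness is a description over 6 libraries that all of these genes share.

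**Figure D5:**
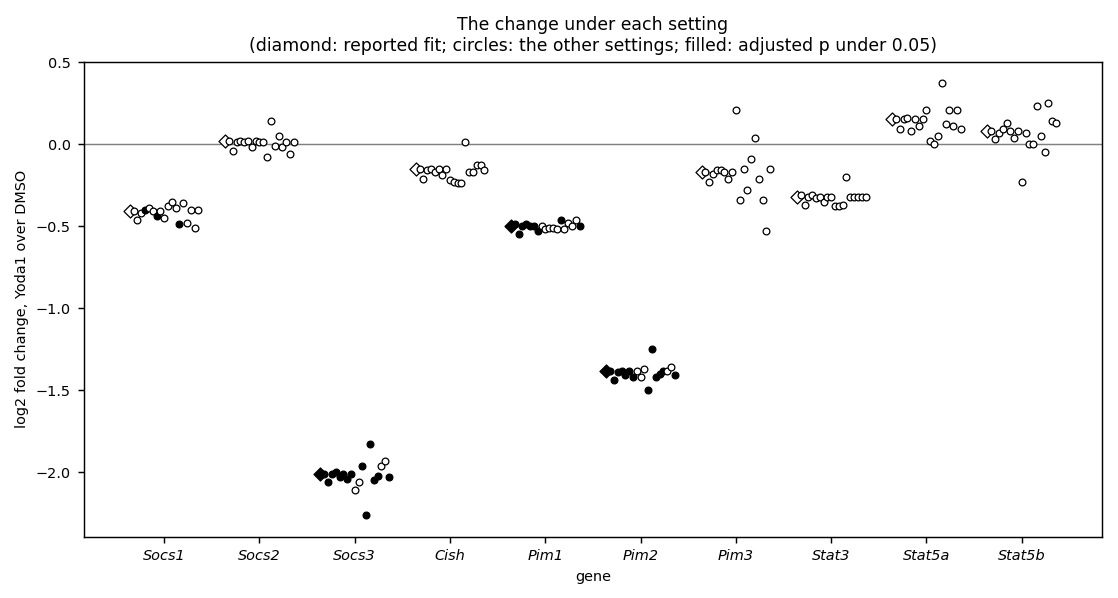
Log2 fold change (y axis, Yoda1 over DMSO) of each of the 10 genes (x axis) in the reported fit (diamond) and under 18 other settings (circles), with filled symbols for an adjusted p under 0.05. Socs3 ranges from -2.26 to -1.83, Pim2 from -1.50 to -1.25 and Pim1 from -0.55 to -0.46, and open circles among them mark settings in which the call was lost.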

How the data were processed

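The authors deposited 1 table of expected counts (estimated reads, not always whole) for 17546 genes. The build was mm10 per the submitters' processing notes; aligner, counting method, strand setting and annotation: not given in the sources used here. Counts were rounded to whole numbers. Total counts were 14214048 to 31627519 per library. The upper limit for a gene at 0, taken as 3 counts, was 0.0949 to 0.211 CPM, for counting error only.

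The fit over all genes used edgeR 4.0.16 in R 4.3.3: filterByExpr with a minimum count of 10 and a minimum total of 15, TMM factors, then glmQLFit and glmQLFTest with treatment as the one term. The threshold was a Benjamini-Hochberg adjusted p of 0.05. Intervals cover 95%. The pipeline was tested on simulated data. The result was recomputed with DESeq2 1.42.0, voom in limma 3.58.1, different scaling factors and filters, glmTreat, the label suffix as a term, libraries with a shared label number summed, and each library left out. Positions and lengths came from GENCODE M21 on GRCm38, and promoters from RefSeq on GRCm38.p6.

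Every member was named whatever its result. From each other list, up to 4 genes with the smallest p past the threshold were named, or up to 2 where none passed, and for each member past it the 3 nearest profiles, leaving out predicted genes. A withheld gene and a list that rests on it are not reported here, though the gene stayed in the fit. The members and lists were chosen with earlier results of these data known. Whether libraries of 1 group stem from different mice or cultures is not stated, so p-values measure only the spread between these libraries, which may be technical. By a chi-square test of counts, no pair of libraries in a group agreed within sampling noise.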

Additional observations from a re-analysis of the deposited data

How the results depend on the processing

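Of the 10 genes, 3 were lower in the reported fit, and the count was 1 (Socs3) with glmTreat against a 1.5-fold change, 0 with the label suffix as a term (0 for DMSO 1 and 2, another number for the rest), 0 with libraries of a shared label number summed, and 0 to 4 with each library left out, the lowest without DMSO 3 and the highest without Yoda1 6. Added after seeing the data, DMSO 1 alone against the Yoda1 libraries gave 0. Under all 18 other settings the log2 fold change stayed negative for Socs3 (-2.26 to -1.83), Pim2 (-1.50 to -1.25) and Pim1 (-0.55 to -0.46). The suffix term sets DMSO 1 and 2 apart, so its changes rest on DMSO 3 alone against the Yoda1 libraries. With summed libraries the adjusted p was 0.134 for Socs3 and 0.0885 for Pim2 (edgeR). Over all tested genes, 123 were lower and 76 higher; DESeq2 gave 496 lower and 422 higher, the 10 CPM filter 290 and 158, glmTreat 10 and 6, the suffix term 1 and 2, summed libraries 0 and 1, DMSO 1 alone 0 and 0, voom treating the label number as random (added after seeing the data) 213 and 151, and leaving out 1 library 5 to 146 lower and 4 to 74 higher. Voom gave 121 higher and no filter 50 higher. Small changes turned sign: Socs2 was -0.04 with upper quartile factors, -0.02 with the 10 CPM filter, -0.06 against DMSO 1 alone and -0.08 to 0.14 with a library left out; Cish reached 0.01, Pim3 0.04, Stat5b -0.05 and Socs6 -0.04 with a library left out, in ranges of -0.24 to 0.01, -0.34 to 0.04, -0.05 to 0.25 and -0.04 to 0.48. With the suffix term, and so against DMSO 3 alone, Pim3 was 0.21, Stat5b -0.23, Cul5 -0.02 and summed Stat5a and Stat5b -0.136. The change of that summed row ranged from -0.000814 to 0.261 with a library left out. The share difference was 2.47 points for Socs2 and -5.91 for Socs3 without division by length, and 3.08 and -6.45 with the longest protein-coding transcript, added after seeing the data. Apart from the change of controls under the suffix term, the cause of these shifts was not tested. Fits with fewer libraries have fewer degrees of freedom. No paired analysis was possible because the replicate numbers, 4 to 6 and 1 to 3, are not shared between the groups.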
